A study of Mus musculus with 6 samples.

Results

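The genes described here encode calcium-dependent kinases, a calcium-dependent phosphatase, its regulators and the transcription factors it controls. They are *Camk2a*, *Camk2b*, *Camk2d* and *Camk2g*, which encode the subunits of calcium/calmodulin-dependent protein kinase II (CaMKII), *Ppp3ca* and *Ppp3cb*, which encode catalytic subunits of calcineurin, *Rcan1* and *Rcan2*, which encode regulators of calcineurin, and *Nfatc2* and *Nfatc4*, which encode nuclear factors of activated T cells (NFAT). These 10 genes were taken by symbol, as every probe set annotated to exactly 1 of them. They comprised 38 of the 45101 probe sets on the array and 10 of the 18193 genes that had a probe set naming 1 gene only. No measured value was used to choose a probe set.

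Whole ventricles of 3 control mice (CTRL) and 3 mice overexpressing COUP-TFII (OE) were each profiled on 1 Affymetrix mouse array, to ask how gene expression differs when this nuclear receptor is raised in adult cardiomyocytes. CTRL mice carried Myh6-MerCreMer (Myh6-MCM), a Cre recombinase that is made under a cardiomyocyte promoter and becomes active with tamoxifen. OE mice carried Myh6-MCM and also CAG-S-COUP-TFII, an allele from which Cre releases expression of COUP-TFII. The mice of both groups were of a mixed 129SvEv/C57Bl6/J strain, all received tamoxifen at 40 mg/kg/day for 3 days from 2 months of age, and ventricles were taken on day 16 after the first dose, at a labelled age of 2.5 months. Cre and tamoxifen were therefore present in both groups and CAG-S-COUP-TFII in OE mice alone.

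The values are log2 signals from which the median of the 6 arrays had been taken off for every probe set. They show how arrays differ for 1 gene and hold no level of expression, so genes cannot be ranked by abundance, the labelled tissue cannot be checked by whether its markers are present, and no filter on low values could be applied. By root mean square distance over all genes, pairs of CTRL arrays were 0.208 to 0.233 apart, pairs of OE arrays 0.194 to 0.215 and pairs of unlike arrays 0.375 to 0.427, so no array stood apart from its group. Of 6 probe sets of *Nr2f2*, the gene of COUP-TFII, 1416159_at was higher in OE, at 1.60 to 1.91 against −1.99 to −1.60 in CTRL. The other 5 were not called, and their log2 changes were all on the lower side, from −0.34 to −0.13.

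When calcium rises in a cell, calmodulin binds it and switches on both CaMKII and calcineurin. CaMKII phosphorylates channels, calcium-handling proteins and histone deacetylases, whereas calcineurin removes phosphates from NFAT proteins, which then enter the nucleus and act on genes with partners such as GATA4 and MEF2. In the heart both branches are known for their part in hypertrophy and heart failure, and *Rcan1* is widely used as a readout of calcineurin activity because NFAT drives its shorter transcript from an internal promoter while the protein restrains calcineurin.

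The promoter windows of *Rcan1* are shown because it was the member with the largest difference between OE and CTRL and because the starts that RefSeq gives for it differ in the letters that NFAT proteins are known to bind. The gene lies on the minus strand at chr16:92391951-92466169 (GRCm38.p6). Each window runs from 250 bases before to 50 bases after an annotated start, 5′ to 3′ on the strand of the gene, and capitals mark the NFAT core GGAAA, or TTTCC where the core is on the other strand.
Rcan1 upstream start, chr16:92466120-92466419: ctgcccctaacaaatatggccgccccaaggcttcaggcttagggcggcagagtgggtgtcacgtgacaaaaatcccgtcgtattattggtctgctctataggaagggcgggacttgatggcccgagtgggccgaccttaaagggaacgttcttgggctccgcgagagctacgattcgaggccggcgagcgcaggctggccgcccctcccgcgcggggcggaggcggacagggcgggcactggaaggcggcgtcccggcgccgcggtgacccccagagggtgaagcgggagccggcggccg
Rcan1 internal start, chr16:92400029-92400328: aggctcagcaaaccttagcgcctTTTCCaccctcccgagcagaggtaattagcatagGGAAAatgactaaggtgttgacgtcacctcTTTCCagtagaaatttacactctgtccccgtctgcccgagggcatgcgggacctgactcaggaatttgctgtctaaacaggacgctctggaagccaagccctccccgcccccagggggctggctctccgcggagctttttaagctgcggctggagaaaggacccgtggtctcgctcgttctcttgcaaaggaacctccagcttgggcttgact
The upstream window held no core, and the internal window held 3, at 227, 193 and 163 bases before the start. A window with at least 3 cores is not rare, since 9.42% of the 32851 RefSeq promoter windows of this length held as many and 61.3% held at least 1. RefSeq windows were matched for 7 of the 10 members, 11 windows in all, and their core counts were 4 for *Ppp3cb*, 3 for *Nfatc4*, 3 and 1 for *Nfatc2*, 2, 0 and 0 for *Rcan2*, 1 for *Camk2d* and 0 for *Camk2b*. The hexamer AGGTCA, which COUP-TFII is known to bind, was in none of the 11 windows on either strand and in 16.3% of all windows. Its direct repeat with a spacer of 1 base was likewise in none of the 11, and in 0.0396% of all windows. These are matches of letters only, and the sources do not say from which start the RNA measured by a probe set came.

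Between OE and CTRL ventricles, *Rcan1* was higher and *Camk2a* and *Nfatc2* were lower, while the other 7 members were not called at an adjusted p of 0.05 (limma over all 18193 genes, Benjamini-Hochberg). Calls were common in this comparison, with 26.7% of all genes called, 14.9% higher and 11.8% lower, so 3 of 10 members is close to the share over all genes. The median log2 change of the members was 0.00, beside −0.03 over all genes. *Rcan1* ranked 208 of 18193 by rise, whereas *Camk2a* ranked 787 by fall. At the level of probe sets, 2 of the 38 were higher, 5 were lower and 31 were not called, beside 21% of all probe sets called, 11.4% higher and 9.58% lower. All OE arrays were above all CTRL arrays in 3 of the 38 and below them in 10, beside 18.4% and 22.3% of all probe sets and 40.7% for either. The probe sets that were called belonged to the same 3 genes.

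**Figure D1:**
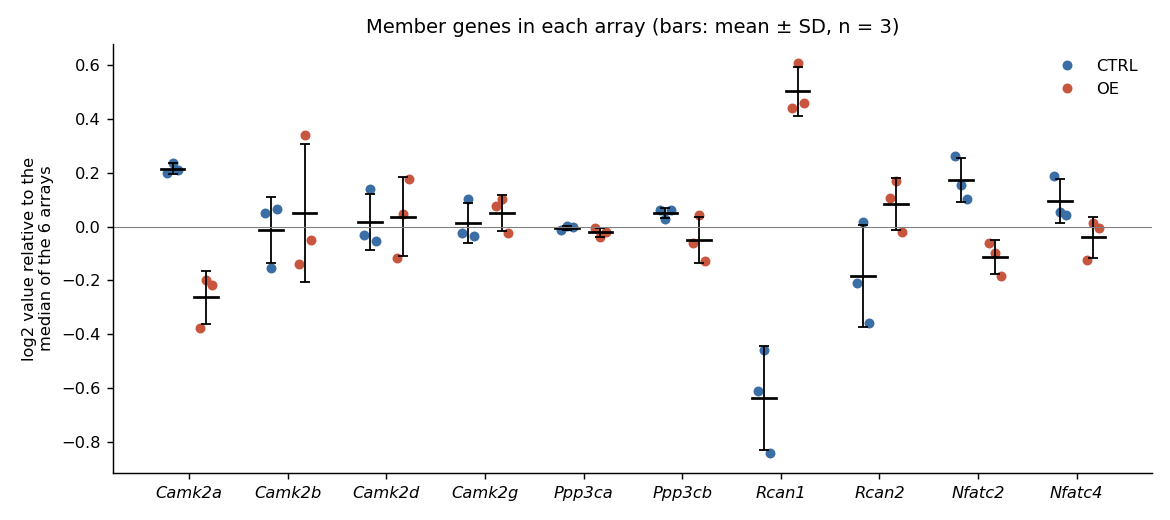
Values of the 10 member genes in each array (log2, relative to the median of the 6 arrays; blue CTRL, red OE), with the mean and SD of 3 arrays per group. *Rcan1* lies between 0.44 and 0.61 in OE and between −0.84 and −0.46 in CTRL, and *Camk2a* and *Nfatc2* lie the other way without overlap.

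**Figure D2:**
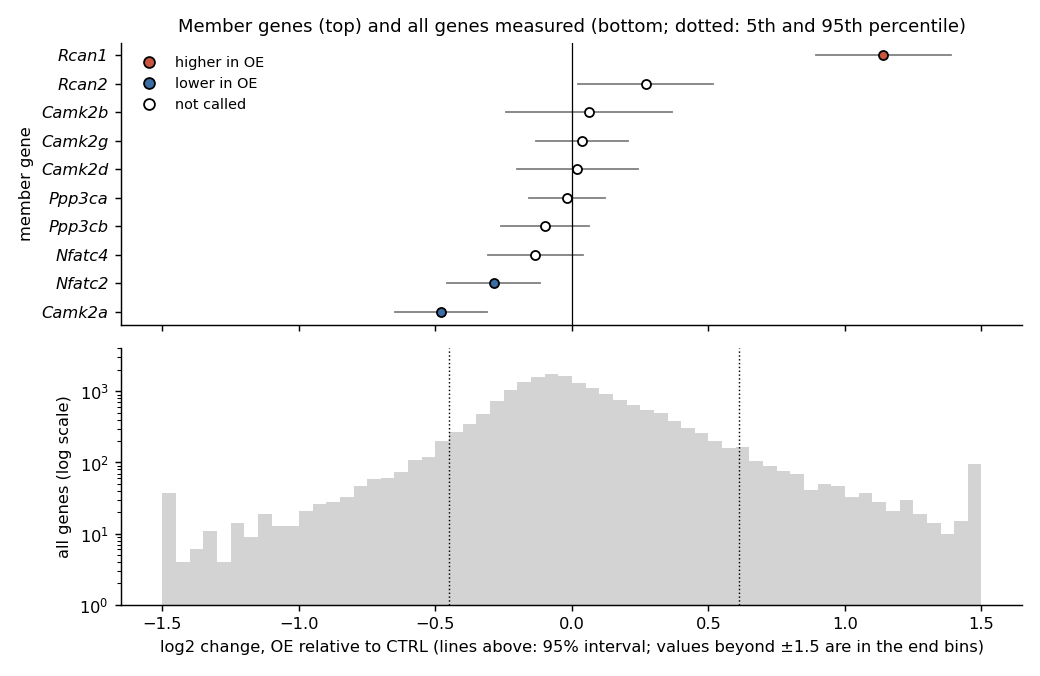
Log2 change of each member with its 95% interval from limma (top) above the distribution of log2 changes of all 18193 genes on the same horizontal axis (bottom, vertical log axis). Dotted lines at −0.45 and 0.61 are the 5th and 95th percentiles of all genes, and *Camk2a* and *Rcan1* are the members outside them.

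Of the CaMKII genes, *Camk2a* alone was called. It encodes the alpha subunit of the kinase, best known from neurons, and its gene also gives rise to a kinase-free anchoring protein of striated muscle. The values of *Camk2a*, the mean of 6 probe sets, were 0.20, 0.24 and 0.21 in the CTRL arrays and −0.38, −0.20 and −0.22 in the OE arrays. The CTRL arrays lay within 0.04 of each other and all 3 OE arrays were below them. The log2 change was −0.48 (SE 0.07, n = 3 per group, 95% interval −0.65 to −0.31, limma adjusted p = 0.00334), which is 1.39-fold lower in OE. This call held under all 13 alternative settings, with a log2 change between −0.79 and −0.42.

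All 6 probe sets of *Camk2a* were on the lower side, but they differed in size. Probe set 1457311_at had the largest change, −0.90 (adjusted p = 0.00106 in the limma fit over probe sets), with CTRL arrays at 0.36, 0.54 and 0.34 and OE arrays at −0.58, −0.34 and −0.54. Of the other probe sets, 1443876_at changed by −0.79, 1437125_at by −0.44 and 1441734_at by −0.36, and all 3 were called. Without single arrays these 3 calls were not steady: 1443876_at lost its call without CTRL replicate 1, 2 or 3 or OE replicate 2 (adjusted p up to 0.0728), 1441734_at without any array but CTRL replicate 2 (up to 0.0846) and 1437125_at without CTRL replicate 1 or OE replicate 1 (up to 0.0548), whereas 1457311_at kept its call throughout (at most 0.00683). In 1443876_at the OE arrays were spread widely, from −0.99 in OE replicate 1 to −0.14 in OE replicate 3. The remaining 1442707_at (−0.25, adjusted p = 0.175) and 1452453_a_at (−0.13, adjusted p = 0.344) were not called, and their groups overlapped. The files do not place the probe sets on the transcripts of *Camk2a*.

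*Camk2d* encodes the delta subunit, the most abundant form of the kinase in heart muscle. Its gene mean over 7 probe sets was −0.03, 0.14 and −0.05 in CTRL and −0.12, 0.05 and 0.18 in OE, so the groups overlapped throughout. The log2 change was 0.02 (SE 0.10, limma adjusted p = 0.899), and its 95% interval of −0.20 to 0.24 leaves room for a modest change either way. The 7 probe sets ran from −0.33 to 0.36, with 4 above and 3 below 0, and none was called. The nearest to a call was 1427763_a_at, with a log2 change of 0.36 (adjusted p = 0.0670), in which all OE arrays (0.04, 0.21 and 0.04) lay above all CTRL arrays (−0.28, −0.04 and −0.48).

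Probe sets of *Camk2d* also diverged within a group. CTRL replicate 2 and OE replicate 3 were the highest arrays of their groups in 1439168_at (0.46 and 0.34), in 1459457_at (0.71 and 0.49) and in 1444031_at (0.32 and 0.88). The same arrays were the lowest of their groups in 1422659_at, at −0.32 and −0.21, and in 1460630_at, at −0.09 and −0.49. The gene mean of *Camk2d* therefore averages probe sets that did not move together, and its direction turned under 5 of the 13 alternative settings.

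**Figure D3:**
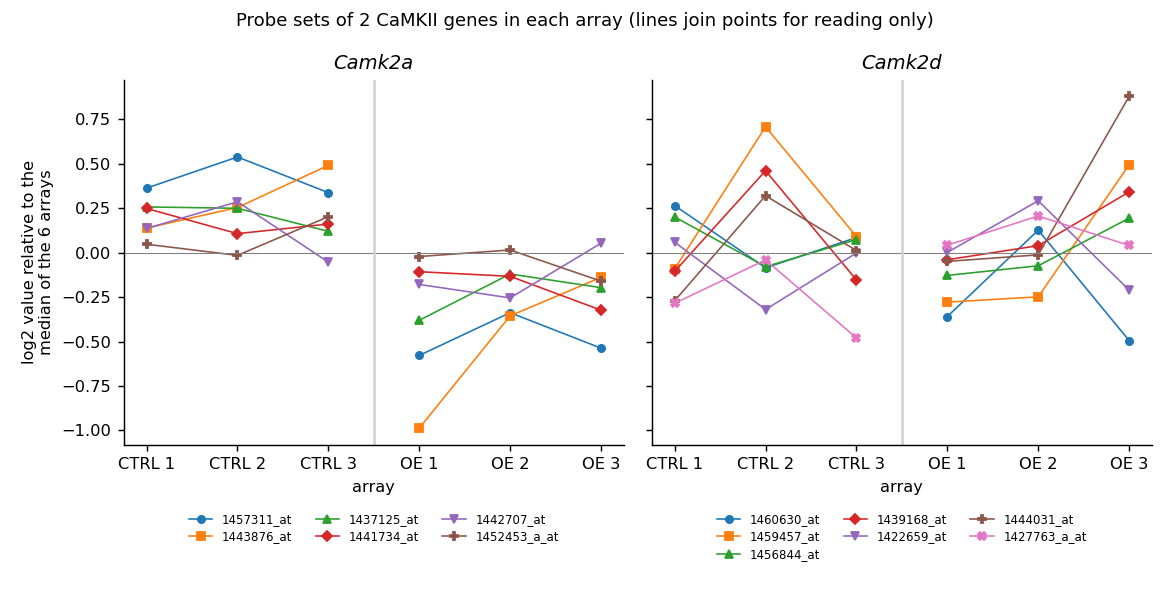
Values of each probe set of *Camk2a* (left, 6 probe sets) and *Camk2d* (right, 7 probe sets) in the 6 arrays (log2, relative to the median of the arrays); lines join points for reading only. All 6 *Camk2a* probe sets have a lower mean in OE than in CTRL, by unlike amounts, and the groups overlap in 1442707_at and 1452453_a_at. *Camk2d* probe sets spread in both directions in CTRL replicate 2 and OE replicate 3.

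The beta and gamma subunits gave no call. *Camk2b*, measured by 1 probe set, was at 0.05, −0.15 and 0.07 in CTRL and at −0.14, 0.34 and −0.05 in OE, a log2 change of 0.06 (SE 0.13, 95% interval −0.24 to 0.37, limma adjusted p = 0.754). OE replicate 2 was the highest array and the other OE arrays fell among the CTRL arrays. *Camk2g* was at −0.02, 0.10 and −0.04 in CTRL and at 0.08, 0.10 and −0.03 in OE, with a log2 change of 0.04 (95% interval −0.13 to 0.21, limma adjusted p = 0.735). Its probe sets, 1423942_a_at and 1423941_at, changed by −0.01 and 0.08.

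Neither of the member genes of calcineurin catalytic subunits was called. *Ppp3ca*, which encodes the alpha form, was at −0.01, 0.00 and 0.00 in CTRL and at 0.00, −0.04 and −0.02 in OE, a log2 change of −0.02 (SE 0.06, limma adjusted p = 0.851). Its 95% interval, −0.16 to 0.12, is the narrowest of the members. *Ppp3cb*, the beta form, was at 0.06, 0.03 and 0.06 in CTRL and at −0.06, 0.04 and −0.13 in OE, with a log2 change of −0.10 (95% interval −0.26 to 0.06, limma adjusted p = 0.322). OE replicates 1 and 3 were below every CTRL array and OE replicate 2 was not. The 3 probe sets of *Ppp3ca* ran from −0.12 to 0.07 and the 5 of *Ppp3cb* from −0.23 to 0.11, and none was called.

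*Rcan1* had the largest difference of the members. Its gene mean was −0.61, −0.46 and −0.84 in the CTRL arrays and 0.44, 0.61 and 0.46 in the OE arrays. The groups were separated by 0.90 between the highest CTRL and the lowest OE array, wider than the range within either group. The log2 change was 1.14 (SE 0.11, n = 3 per group, 95% interval 0.89 to 1.39, limma adjusted p = 0.000536), or 2.20-fold higher in OE. Both probe sets were higher, 1416600_a_at by 1.24 (adjusted p = 0.000309) and 1416601_a_at by 1.04 (adjusted p = 0.00220). The call held under all 13 alternative settings, between 0.92 and 1.24. The files do not say which of the *Rcan1* transcripts, from the upstream or the internal start shown above, the probe sets match.

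*Rcan2*, which encodes a related regulator, was at −0.21, 0.02 and −0.36 in CTRL and at 0.10, 0.17 and −0.02 in OE. OE replicates 1 and 2 were above every CTRL array, and OE replicate 3 was below CTRL replicate 2. The log2 change of 0.27 (SE 0.11, 95% interval 0.02 to 0.52) did not pass the threshold (limma adjusted p = 0.0983), although it did without CTRL replicate 2 (0.37, adjusted p = 0.0380). *Rcan2* was at 0.18 without CTRL replicate 3 (limma adjusted p = 0.239) and at 0.05 with arrays centred on ribosomal protein genes (0.725). Its probe sets changed by 0.42 in 1450243_a_at (adjusted p = 0.153) and by 0.12 in 1421425_a_at (adjusted p = 0.328).

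*Nfatc2* was called lower by a small margin. Its mean over 6 probe sets was 0.26, 0.15 and 0.10 in CTRL and −0.06, −0.10 and −0.18 in OE. The groups did not overlap, as was so for 45.6% of all genes, 23.6% with OE below. The log2 change was −0.29 (SE 0.07, 95% interval −0.46 to −0.12, limma adjusted p = 0.0250), or 1.22-fold lower. All 6 probe sets were on the lower side, from −0.44 to −0.09, but only 1439205_at was called (adjusted p = 0.0300), and it was not without CTRL replicate 1 or 3 or OE replicate 1 or 2 (adjusted p up to 0.0982). The call of the gene was lost in 8 of the 13 alternative settings, with adjusted p of up to 0.0762, so it depended on the test, on how probe sets were combined and on single arrays. It was lost without CTRL replicate 1 (adjusted p = 0.0762), CTRL replicate 2 (0.0568), OE replicate 1 (0.0509), OE replicate 2 (0.0585) and OE replicate 3 (0.0736), and under one-way analysis of variance (0.0542).

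*Nfatc4* was at 0.19, 0.05 and 0.04 in CTRL and at −0.13, 0.01 and −0.01 in OE. All OE arrays were below all CTRL arrays, by 0.03 at the nearest, and the log2 change of −0.13 was not called (95% interval −0.31 to 0.04, limma adjusted p = 0.221). Its 4 probe sets were all on the lower side, from −0.33 to −0.03, and none was called. Among the members the OE arrays were all above CTRL for 1 gene and all below for 3, beside 22% and 23.6% of all genes.

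**Figure D4:**
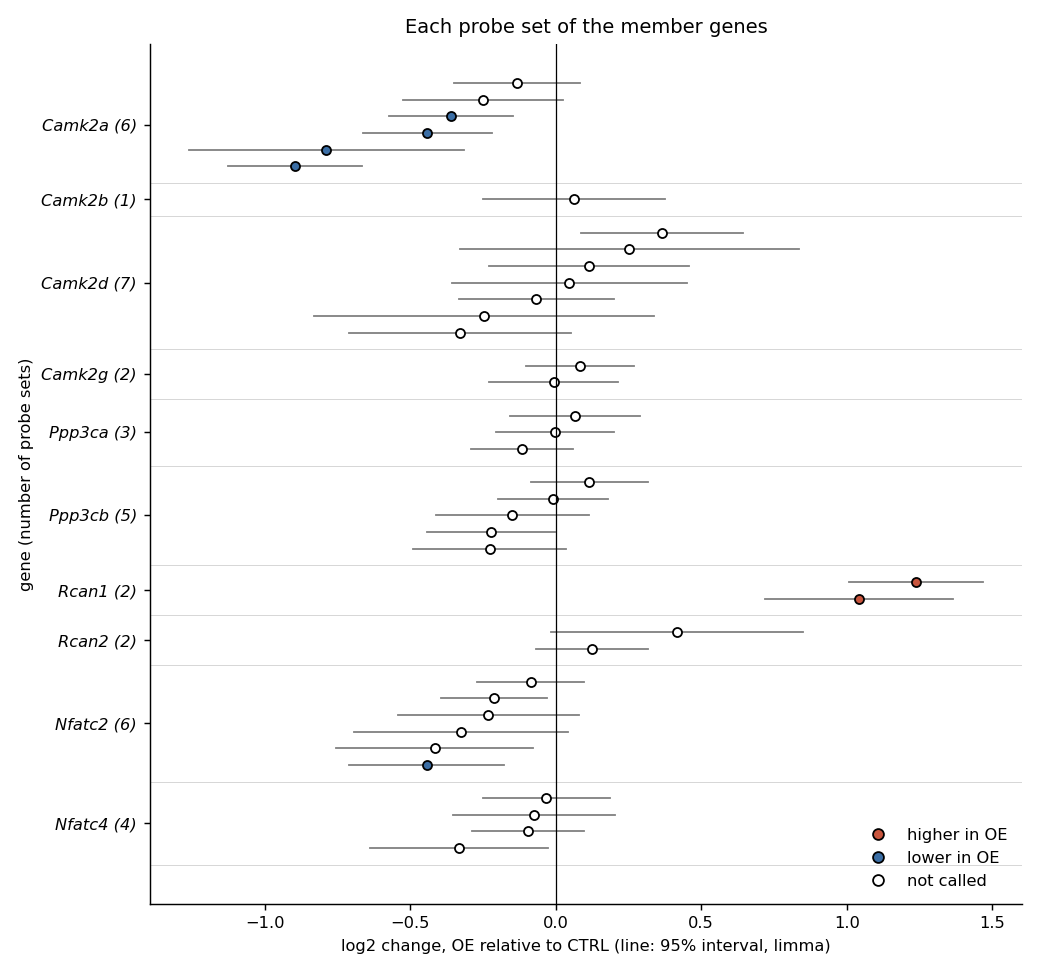
Log2 change of each of the 38 probe sets, grouped by gene, with its 95% interval from the limma fit over probe sets (red higher in OE, blue lower, white not called). The 2 probe sets of *Rcan1* are the highest, all 6 of *Camk2a*, all 6 of *Nfatc2* and all 4 of *Nfatc4* lie below 0, and the 7 of *Camk2d* lie on both sides.

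To see whether related genes changed unequally, the value of one gene was subtracted from that of its relative in each array, for 6 pairs. *Rcan1* minus *Rcan2* was −0.40, −0.47 and −0.48 in CTRL and 0.33, 0.44 and 0.48 in OE, a difference between the groups of 0.87. *Camk2a* minus *Camk2d* was 0.23, 0.10 and 0.26 in CTRL and −0.26, −0.24 and −0.40 in OE, a difference of −0.50. In both pairs all OE arrays lay on one side of all CTRL arrays, and the exact two-sided permutation test gave p = 0.1 (adjusted p = 0.3 over the 6 pairs), the smallest p that 3 arrays against 3 allow. Unequal change therefore could not reach an adjusted p of 0.05 in any pair. The differences were −0.15 for *Nfatc2* minus *Nfatc4* (exact p = 0.2), 0.08 for *Ppp3ca* minus *Ppp3cb* (exact p = 0.4), 0.04 for *Camk2b* minus *Camk2d* (exact p = 0.9) and 0.02 for *Camk2g* minus *Camk2d* (exact p = 0.8), and the groups overlapped in these 4 pairs.

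The genes whose 6 array values lay closest to those of the called members with the largest rise and fall were found by root mean square distance over the arrays, as a description. For *Rcan1* they were *Rab20* (distance 0.0969), *Rhoc* (0.105) and *Myh7* (0.107), which were 2.30-fold, 2.12-fold and 2.27-fold higher in OE. *Rab20* and *Rhoc* encode small GTPases and *Myh7* the beta myosin heavy chain, the fetal form in mouse ventricle. For *Camk2a* they were *Abhd11* (0.0260), *Mnt* (0.0315) and *Hectd4* (0.0327), with log2 changes of −0.50, −0.46 and −0.50. *Abhd11* encodes a mitochondrial hydrolase and *Mnt* a partner of MAX that represses transcription.

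Outside the members, 49 of 56 listed genes of the same pathway were measured, of which 7 were higher, 6 were lower and 36 were not called, with a median log2 change of −0.04. The called share was 26.5%, close to the 26.7% over all genes, with 14.3% higher beside 14.9% and 12.2% lower beside 11.8%. The counts of the single lists below rest on 3 to 10 genes each and are descriptions beside these same shares of all genes. The other 7 were not analysed here. Of these calls 5 were in the list of calmodulin and other CaM kinases, 3 each were among the calcineurin anchors and inhibitors and among the MEF2 and class IIa HDAC genes, and none was among the other calcineurin subunit, NFAT and RCAN genes.

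**Figure D5:**
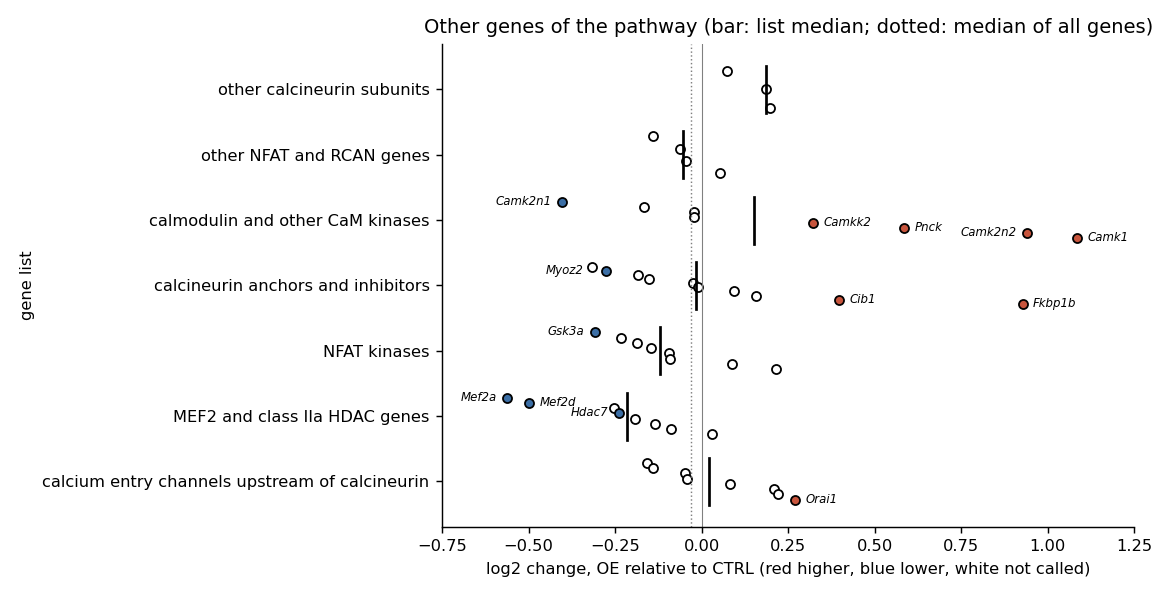
Log2 change of the 49 other pathway genes by list (circles; red higher, blue lower, white not called), with each list's median as a bar and the median of all genes, −0.03, as a dotted line. The largest rises are *Camk1*, *Camk2n2* and *Fkbp1b*, and the largest falls are *Mef2a* and *Mef2d*.

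In the list of calmodulin and other CaM kinases, 4 of 8 measured genes were higher and 1 was lower, with a median log2 change of 0.15. *Camk1*, which encodes CaM kinase I, was at −0.45, −0.49 and −0.53 in CTRL and at 0.71, 0.45 and 0.61 in OE. Its log2 change of 1.08 (SE 0.08, limma adjusted p = 0.000272, 2.12-fold) stood beside 1.14 for *Rcan1*, and both of its probe sets were called. *Camk2n2*, which encodes an inhibitor of CaMKII, was at −0.40, −0.36 and −0.54 in CTRL and at 0.46, 0.70 and 0.36 in OE, a log2 change of 0.94 (limma adjusted p = 0.000902).

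The other CaMKII inhibitor gene went the opposite way. *Camk2n1* was at 0.07, 0.27 and 0.22 in CTRL and at −0.13, −0.38 and −0.15 in OE, a log2 change of −0.40 (limma adjusted p = 0.0180), and the groups of both inhibitor genes were separate. *Pnck*, a relative of CaM kinase I, was higher by 0.58 (limma adjusted p = 0.0228), and so was *Camkk2*, an upstream kinase of *Camk1* and *Camk4* products that was the fifth called gene of the list and was named after its values were seen, by 0.32 (adjusted p = 0.0186). *Camk4*, CaM kinase IV, was not called at −0.17 (adjusted p = 0.0988). Its probe sets differed, with 1421941_at lower (−0.41, adjusted p = 0.0153 in the limma fit over probe sets) and 1439843_at not called at 0.19. In *Camkk2*, 1424475_at (0.54) and 1424474_a_at (0.31) were higher, and 1455401_at (0.41) and 1424476_at (0.02) were not called. In *Camk2n1*, 1456609_at (−0.57) was lower and 1440455_at (−0.24) was not called. Under one-way analysis of variance the calls of *Camk2n1* (adjusted p = 0.0760), *Pnck* (0.115) and *Camkk2* (0.0528) were lost. The calls of *Camk2n1* (0.0588) and *Pnck* (0.0709) were also lost without CTRL replicate 2, that of *Pnck* (0.0545) without CTRL replicate 3, and that of *Camkk2* without CTRL replicate 1 (0.0599) and without OE replicate 3 (0.0563). With arrays centred on ribosomal protein genes *Camkk2* was at 0.10 (adjusted p = 0.277) and *Pnck* at 0.37 (0.0613), both no longer called, and the probe set of largest variance also gave no call for *Camkk2* (0.0803).

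None of the 3 other calcineurin subunit genes was called. In 2 of the 3, *Ppp3cc* among them, all OE arrays lay above all CTRL arrays, beside 22% of all genes. *Ppp3cc*, a further catalytic subunit, had a log2 change of 0.20 (limma adjusted p = 0.0678) and *Ppp3r1*, the widely expressed regulatory subunit, one of 0.07 (adjusted p = 0.526). None of the 4 other NFAT and RCAN genes was called either, with *Nfatc1* at −0.14 (adjusted p = 0.141) and *Nfatc3* at −0.04 (adjusted p = 0.749). With these, the log2 changes of all calcineurin subunit genes measured lay between −0.10 and 0.20. Probe sets of *Nfatc1* differed, with 1417621_at lower (−0.28, adjusted p = 0.0372 in the limma fit over probe sets) and 1447084_at not called at 0.22.

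The list of calcineurin anchors and inhibitors also holds genes of FK506-binding proteins. Of its 10 measured genes 2 were higher and 1 was lower, with a median of −0.02. *Fkbp1b*, which encodes the FK506-binding protein that sits on the ryanodine receptor, was at −0.23, −0.50 and −0.33 in CTRL and at 0.79, 0.23 and 0.69 in OE, a log2 change of 0.93 (limma adjusted p = 0.00420) measured by 1 probe set. *Cib1*, an anchor of calcineurin at the cardiomyocyte membrane, was higher by 0.40 (adjusted p = 0.00329) as the mean of probe sets that differed. In *Cib1*, 1448564_at was higher by 0.89, whereas 1425856_at had a log2 change of −0.10 that was not called (adjusted p = 0.582) and its groups overlapped. The call of *Fkbp1b* was lost under analysis of variance (adjusted p = 0.0529), that of *Cib1* with arrays centred on ribosomal protein genes (0.0535). *Myoz2*, which encodes calsarcin-1, an inhibitor of calcineurin at the Z-disc, was lower by a margin near the threshold (−0.28, adjusted p = 0.0482), and *Akap6*, an anchor at the nuclear envelope, was not called at −0.32 (adjusted p = 0.101), although it was without CTRL replicate 3 (0.0301). The call of *Myoz2* was lost in 10 of 13 alternative settings, among them without any single array but CTRL replicate 2 (adjusted p up to 0.135).

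Of 8 kinases that phosphorylate NFAT, *Gsk3a* was lower (log2 change −0.31, limma adjusted p = 0.0264) and the others were not called, with a list median of −0.12. *Gsk3b* had a log2 change of −0.10 (adjusted p = 0.361) as the mean of 6 probe sets that did not go the same way. In *Gsk3b*, 1437001_at (−0.40) and 1451020_at (−0.35) were lower, 1439949_at (0.47) was higher, and the other 3 were not called. *Dyrk1a* had a log2 change of 0.21 (adjusted p = 0.0710). In *Dyrk1a*, 1451977_at was higher (0.53, adjusted p = 0.00421 in the limma fit over probe sets), and 1428299_at (0.21) and 1426226_at (−0.09) were not called. The call of *Gsk3a* was lost in 5 of 13 alternative settings, which include leaving out CTRL replicate 1 or 2 or OE replicate 2 or 3 (adjusted p up to 0.0764).

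Of 8 MEF2 and class IIa HDAC genes, downstream of CaMKII, 3 were lower and none was higher, with a median log2 change of −0.22. *Mef2a* was at 0.41, 0.41 and 0.12 in CTRL and at −0.26, −0.16 and −0.33 in OE, a log2 change of −0.56 (limma adjusted p = 0.00587). *Mef2d* was at 0.19, 0.33 and 0.27 in CTRL and at −0.22, −0.27 and −0.21 in OE, a log2 change of −0.50 (adjusted p = 0.00212). *Hdac7* was lower by a margin near the threshold (−0.24, adjusted p = 0.0470), and *Mef2c* (0.03, adjusted p = 0.878) and *Hdac4* (−0.19, adjusted p = 0.214) were not called. Of 8 calcium entry genes upstream of calcineurin, *Orai1*, the pore of store-operated entry, was higher (0.27, adjusted p = 0.0269), and *Trpc6* (−0.14, adjusted p = 0.203) and *Stim1* (−0.16, adjusted p = 0.172) were not called. The call of *Hdac7* was lost in 9 of 13 alternative settings, among them without any single array but OE replicate 3 (adjusted p up to 0.128). That of *Orai1* was lost in 6, among them without CTRL replicate 1 or 2 or OE replicate 1 or 3 (up to 0.0913) and with arrays centred on ribosomal protein genes (0.05, adjusted p = 0.571).

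Whole ventricles hold several cell types, and in bulk RNA fewer cells of a type and less RNA per cell cannot be told apart. Marker genes of several types moved with the groups. Of 10 cardiomyocyte markers 6 were lower and none was higher, with a list mean of 0.18 to 0.24 in CTRL arrays and −0.23 to −0.19 in OE arrays. The list was not uniform, with called log2 changes from −1.31 (*Myh6*) to −0.47 (*Tnni3*) and *Tnnt2* not called at −0.10. *Actc1* (0.06), *Actn2* (0.12) and *Myom1* (0.12) were not called, but all OE arrays lay above all CTRL arrays, as in 22% of all genes. Of 9 fibroblast markers 5 were higher and 1 was lower (−0.64 to −0.21 in CTRL and 0.19 to 0.38 in OE). Those higher were *Postn* (2.66), *Col3a1* (1.43), *Col1a2* (1.29), *Col1a1* (0.79) and *Lum* (0.49). *Ddr2* (−0.41) was lower, and *Tcf21* (0.24), *Pdgfra* (0.15) and *Dcn* (0.03) were not called, with groups that overlapped. Of 6 smooth muscle markers 3 were higher and 2 lower (−0.61 to −0.32 in CTRL and 0.34 to 0.52 in OE). The smooth muscle list mean rests largely on *Cnn1*, with a log2 change of 4.94. *Acta2* (1.08) and *Tagln* (0.82) were also higher, *Smtn* (−0.87) and *Myh11* (−0.34) were lower, and *Lmod1* (−0.25) was not called. The macrophage list had 4 genes higher among 8 (−0.36 to −0.13 and 0.08 to 0.39), and the endothelial list had 5 lower among 8 (0.13 to 0.42 and −0.20 to −0.07).

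*Camk2a* and *Nfatc2* are best known from neurons and T cells. Of 7 neuronal markers 1 was higher and 1 lower (−0.03 to 0.05 in CTRL and −0.01 to 0.05 in OE), and of 7 T cell markers none was called (0.02 to 0.10 and −0.06 to −0.03). The T cell list had a median log2 change of −0.17. In 3 of its 7 genes all OE arrays lay below all CTRL arrays, beside 23.6% of all genes. Of 6 skeletal muscle markers 2 were lower (0.06 to 0.16 and −0.22 to −0.02). The part of these shifts in the changes of *Rcan1*, *Camk2a*, *Nfatc2* and the pathway genes was not tested. The scale also bears on the small changes: centring each array on ribosomal protein genes, of which 16 of 42 were higher and 1 was lower in OE, moved the median of all genes to −0.25, and gave 1302 genes higher and 9236 lower in place of 2709 and 2152. On that scale *Rcan1* remained higher (0.92) and *Camk2a* and *Nfatc2* remained lower, *Ppp3ca* (−0.24), *Ppp3cb* (−0.32) and *Nfatc4* (−0.35) were also called lower, and *Camk2b*, *Camk2d* and *Camk2g* turned below 0 without being called.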

How the data were processed

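RNA from whole ventricles of 6 mice, each labelled as a sample of its own, was measured on 6 arrays, 3 CTRL and 3 OE. The number of arrays limits the precision of each value. The authors made the deposited log2 values in GeneSpring GX by RMA summarization and quantile normalization, followed by a baseline at the median of each probe set. The base of the logarithm is not given in the sources used here, and 2 was assumed after RMA. Of 45101 probe sets, 9211 had no gene, 932 named several symbols and 64 were array controls. The 34945 that named 1 gene were averaged into 18193 genes. OE was compared with CTRL by limma (version 3.58.1, R 4.3.3, lmFit and eBayes, two-sided, no covariate), with p adjusted by Benjamini-Hochberg over all genes, or over 45037 probe sets, and a threshold of 0.05. The script was tested on simulated data. One-way analysis of variance, the test the methods give, was run as an alternative because a variance from 3 arrays is unsteady. Other alternatives changed the scaling, the choice of probe sets, the fold limit and the block, or left out each array. Differences between related genes were tested by exact permutation. Named genes were all members, up to 4 called and 2 uncalled genes of each pathway list, and the 3 nearest genes to *Rcan1* and *Camk2a*. The members and lists were chosen with earlier results of these data known. Promoter windows are those of RefSeq for GRCm38.p6. Tables and plots were made in Python (3.11.15) with pandas (2.3.3), numpy (2.4.6) and matplotlib (3.10.9).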

Additional observations from a re-analysis of the deposited data

How the results depend on the processing

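The calls of *Rcan1* and *Camk2a* held under all 13 alternatives, that of *Nfatc2* under 5, and no called member changed direction. One-way analysis of variance gave 1437 genes higher and 1125 lower, 1 member and 1 member probe set lower, and 2 pathway genes lower. Centring on ribosomal protein genes gave 1302 and 9236 genes, 5 members and 20 member probe sets lower, and 3 pathway genes higher and 28 lower, and turned *Camk2b* to −0.16, *Camk2d* to −0.20, *Camk2g* to −0.18, *Mef2c* to −0.19, *Ppp3r1* to −0.14, *Ppp3cc* to −0.019 and *Dyrk1a* to −0.0038. The probe set of largest variance gave 1 member lower and 11 pathway genes higher, and turned *Camk2d* to −0.25, *Camk2g* to −0.0081, *Ppp3ca* to 0.066, *Nfatc3* to 0.026 and *Gsk3b* to 0.47 (adjusted p = 0.00940). The median of the probe sets gave 1 member lower and turned *Mef2c* to −0.031, *Camk2b* minus *Camk2d* to −0.039 and *Camk2g* minus *Camk2d* to −0.064. Leaving out each array in turn gave 1243 to 1731 genes lower, 1 to 2 members higher and 1 to 2 lower, 2 to 4 member probe sets higher and 1 to 4 lower, and 3 to 6 pathway genes lower. The log2 change then ran from −0.083 to 0.16 for *Camk2b*, −0.052 to 0.10 for *Camk2d*, −0.073 to 0.11 for *Mef2c* and −0.14 to 0.017 for *Nfatc3*, and the difference from −0.10 to 0.16 for *Camk2b* minus *Camk2d* and −0.070 to 0.13 for *Camk2g* minus *Camk2d*. The causes of these shifts were not tested. Samples with the same replicate number had correlations of deviations of 0.07, −0.12 and 0.03, beside −0.11 to 0.08 for unlike numbers. With 3 arrays per group this does not settle whether the numbers pair the samples. The replicate block gave 2369 genes higher and 1679 lower, with 1 member higher and 2 lower. A filter on low expression could not be run on values without a level.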
